A study of Mus musculus with 18 samples.

Results

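The 10 genes described here belong to antigen presentation by the major histocompatibility complex (MHC). They were taken by name from the count table, which lists 55335 genes, and all 10 were among the 21349 genes that passed the filter on low counts and were tested. The class II set of 7 genes held H2-Aa, H2-Ab1 and H2-Eb1, which encode chains of the surface molecules, Cd74, the invariant chain, H2-DMa and H2-DMb1, which encode the peptide exchange factor H2-DM, and Ciita, the class II transactivator. The class I set of 3 genes held B2m, the light chain of class I molecules, Tap1, a subunit of the transporter that carries peptides into the endoplasmic reticulum, and Nlrc5, a transactivator of class I genes. RNA-Seq was performed on purified small intestinal crypts of mice aged 8 to 12 weeks. In the KO mice (PRMT1 fl/fl;Vil-CreERT2) a tamoxifen-activated Cre recombinase driven by the villin promoter removes Prmt1 from the intestinal epithelium, and the WT mice were PRMT1 fl/fl littermates without Cre. All mice of both genotypes received tamoxifen, 2 injections before collection at day 2 and 5 before collection at days 7 and 14, so WT crypts of day 2 also differed from those of the later days in the number of injections. There were 3 mice of each genotype on each of the 3 days, counted from the first injection, which gives 6 groups and 18 libraries. The villin promoter is active in epithelium, and crypt preparations can also contain stromal and immune cells.

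Class I molecules are present on nearly all nucleated cells and display peptides made by the proteasome, which Tap1 and its partner Tap2 carry to the heavy chain and B2m. Class II molecules are best known from B cells, dendritic cells and macrophages, but epithelial cells of the small intestine also make them, above all under interferon-gamma. Ciita and Nlrc5 do not bind DNA by themselves. They join an assembly of RFX, CREB and NF-Y proteins on a short promoter module known as the X and Y boxes.

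Promoters that carry this module are shown for 3 members, H2-Aa, H2-Eb1 and B2m. Whether the module has a part in how the members varied across libraries was not tested. RefSeq promoter windows (GRCm38.p6, the mm10 build) were found for 6 of the 10 members, and the 250 bases before each annotated start were searched on both strands. The pair searched for was TGANG, the start of the X2 box bound by CREB proteins, followed by GATTGG, the inverted CCAAT of the Y box bound by NF-Y, starting 24 to 27 bases further on. This spacing was set after these sequences had been read. The pair was found in the windows of H2-Aa, H2-Eb1, H2-DMb1 and B2m, and in 0.329% of the 32851 promoter windows of the table, whereas GATTGG alone was in 14.6% of them. The 150 bases before the start are printed 5′ to 3′ on the strand of each gene, for H2-Aa at chr17:34287824-34287973 (minus strand), H2-Eb1 at chr17:34305717-34305866 (plus strand) and B2m at chr2:122147537-122147686 (plus strand), with the pair in capitals, and in H2-Eb1 also a second Y box on the other strand, read as CCAATC. B2m also has a match to the core of the interferon-stimulated response element (GAAA, any 2 bases, GAAA), in capitals near the 5′ end, and this core was in 2.98% of all windows. The H2-DMb1 window is not printed, since it ends at 34153190, inside the gene as annotated for the counts (from 34153072).
H2-Aa: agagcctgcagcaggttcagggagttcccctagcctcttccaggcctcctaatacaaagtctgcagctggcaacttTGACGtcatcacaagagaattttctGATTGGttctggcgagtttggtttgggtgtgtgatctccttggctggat
H2-Eb1: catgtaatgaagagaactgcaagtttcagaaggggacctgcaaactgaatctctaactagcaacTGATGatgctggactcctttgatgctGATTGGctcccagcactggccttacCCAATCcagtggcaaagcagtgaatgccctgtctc
B2m: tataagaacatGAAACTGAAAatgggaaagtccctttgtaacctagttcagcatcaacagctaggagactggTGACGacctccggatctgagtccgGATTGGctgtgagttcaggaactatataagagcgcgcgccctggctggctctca
The 250 bases before the start of Tap1 held GATTGG on the opposite strand and no pair, and not the core of the interferon-stimulated response element. H2-DMa has 2 windows, with no pair in either and GATTGG alone in the second of them. Both windows (34122582-34122831 and 34125268-34125517) lie inside the gene as annotated for the counts (34119541-34139101), and the bases before that annotated start were not searched. A match says only that these letters are present, and binding was not measured.

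The genes lie on mm10 at B2m 2:122147686-122153083, Nlrc5 8:94434356-94527272, Ciita 16:10480059-10528418, Cd74 18:60803848-60812652, and on chromosome 17 H2-DMa 34119541-34139101, H2-DMb1 34153072-34160230, Tap1 34187553-34197225, H2-Ab1 34257689-34269419, H2-Aa 34282744-34287823 and H2-Eb1 34305867-34316674. The deposited values are fragments over all exons of a gene. Strand was not used in the counting and a fragment over 2 genes was counted for both. Tap1 shares 212 exonic bases with Psmb9 on the opposite strand, H2-DMa 313 with Brd2, Ciita 127 with Dexi, and Nlrc5 78 with 9330175E14Rik, so these values can contain reads of the neighbour. Cd74 shares 12 exonic bases with Mir5107 on the same strand.

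Total counts per library ranged from 12844642 to 31493484. Prmt1 was lower in KO than in WT crypts on every day (13.1 to 17.4 CPM in KO and 20.2 to 30.6 CPM in WT, counts scaled to library size with TMM factors), with log2 fold changes of -0.89, -0.59 and -0.72 at days 2, 7 and 14 (adjusted p = 0.0264, 0.00675 and 0.00329 by the quasi-likelihood F-test of edgeR, with p-values adjusted by Benjamini and Hochberg's method across all tested genes, as for every adjusted p given here). Remaining Prmt1 signal in KO crypts was not assigned to a source. The 8 epithelial markers, such as Epcam and Vil1, summed to 4759 to 8948 CPM in every library, against 3.67 to 38.5 CPM for 7 B cell markers, 21.6 to 80.3 CPM for 15 macrophage and dendritic cell markers, 82.1 to 277 CPM for 12 T cell and intraepithelial lymphocyte markers and 13.3 to 178 CPM for 8 stromal and endothelial markers. In bulk crypts, fewer cells of a type and less RNA per cell cannot be told apart.

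Per kilobase of exon, the scale on which genes can be compared, B2m and Cd74 were the most abundant members. B2m had a median of 351 CPM per kb over the 18 libraries and Cd74 of 142 CPM per kb. H2-Ab1 (41.0), H2-Eb1 (32.5), H2-Aa (21.1) and Tap1 (13.04 CPM per kb) followed, and H2-DMa (9.01) and H2-DMb1 (8.38 CPM per kb) were lower. The transactivators were the least abundant, with medians of 2.28 CPM per kb for Ciita and 1.84 CPM per kb for Nlrc5. The difference between the lowest and the highest library was 51.7-fold for Cd74, 44.8-fold for H2-Aa and 9.88-fold for Ciita, but 4.01-fold for B2m and 4.73-fold for Tap1. Counts behind these values were never under 25 (H2-DMb1), so counting error was small beside the spread between mice.

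**Figure D1:**
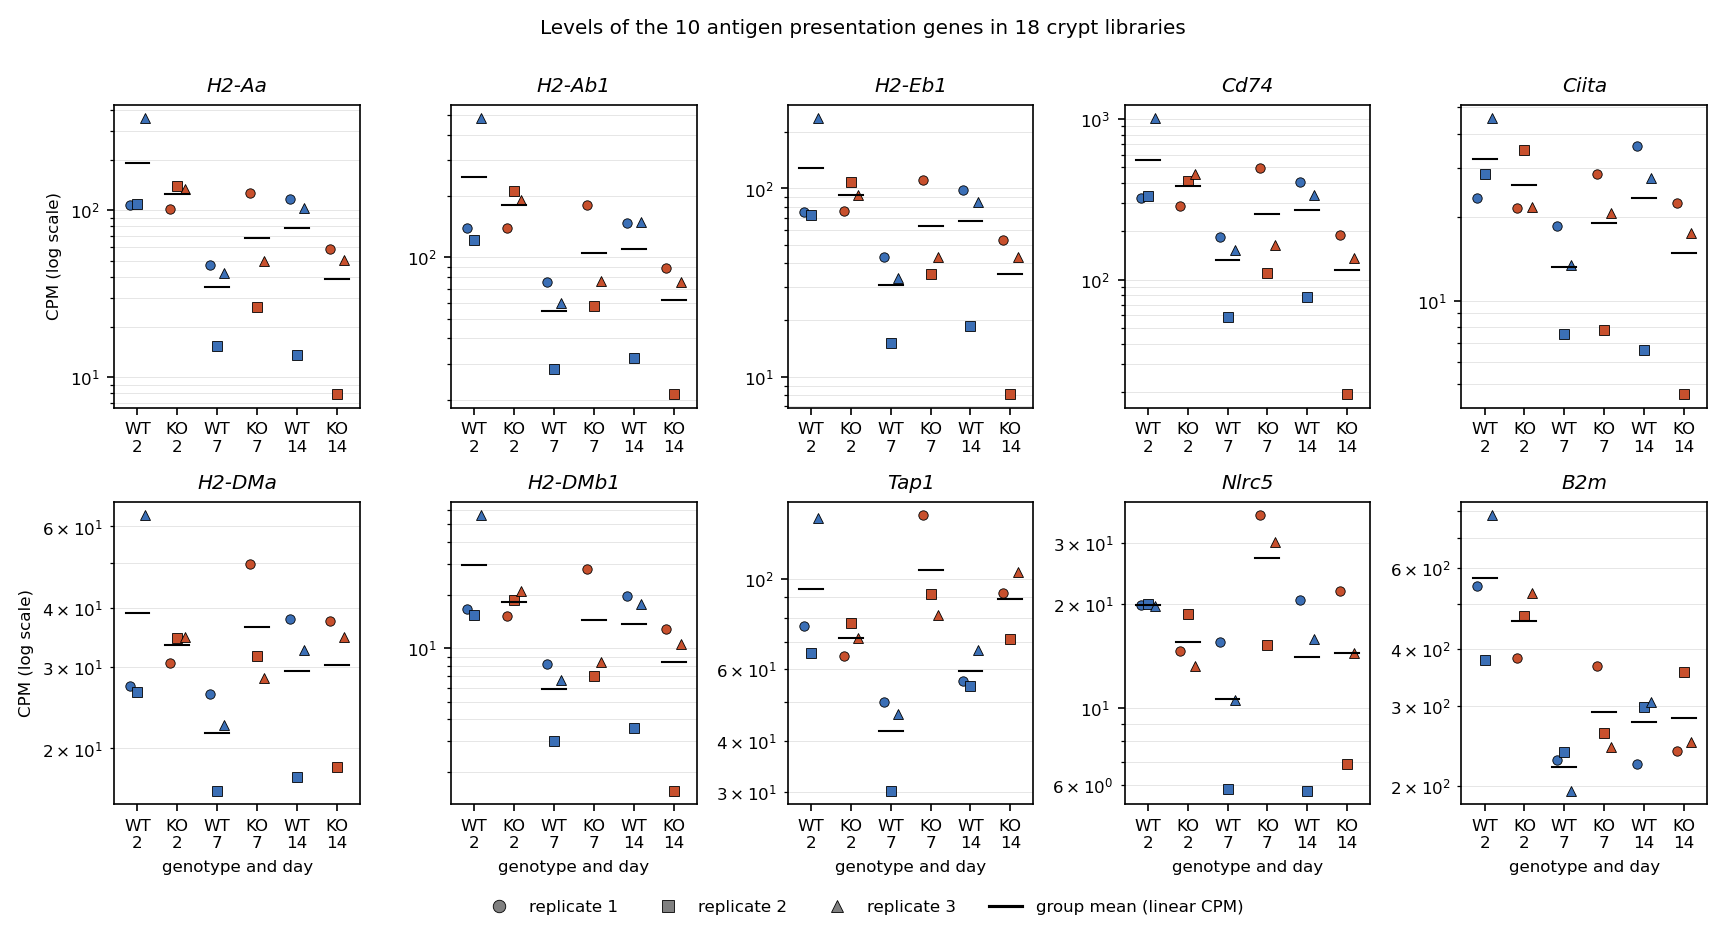
Levels of the 10 members in the 18 libraries, as CPM on a log axis, by genotype and day. Points are single mice, marked by replicate number, and bars are group means. The WT day 2 library of replicate 3 is the highest of all for every class II member, and the KO day 14 library of replicate 2 is the lowest for 6 of these 7 genes.

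In the model over all 18 libraries Tap1 was the only member called (adjusted p under 0.05) between KO and WT crypts, and it was called at day 7. At day 7 it stood at 143, 91.5 and 81.4 CPM in the KO libraries of replicates 1 to 3 and at 49.9, 30.2 and 46.7 CPM in the WT libraries. Every KO library was above every WT library. The log2 fold change was 1.31, a 2.49-fold difference (SE 0.27, 95% interval 0.75 to 1.88, adjusted p = 0.00269 by edgeR). Genes called in either direction made up 17.3% of all tested genes in this comparison, so 1 of 10 members is not above the background. At day 2 Tap1 was at 64.8, 77.9 and 71.5 CPM in KO and at 76.5, 65.6 and 141 CPM in WT. Here the groups overlapped, and the log2 fold change was -0.40 (SE 0.26, 95% interval -0.96 to 0.16, adjusted p = 0.999). Without the WT library of replicate 3, which had the 141 CPM, it was -0.00070. At day 14 the KO libraries had 92.1, 71.3 and 104 CPM and the WT libraries 56.1, 54.6 and 67.0 CPM. All KO libraries were again above all WT libraries, but the log2 fold change of 0.59 did not pass the test (SE 0.27, 95% interval 0.03 to 1.15, adjusted p = 0.205). In a model of the day 14 libraries with a block for the replicate number it passed, at 0.58 (SE 0.11, adjusted p = 0.0102). Over the 6 groups the order of mean levels was KO day 7, WT day 2, KO day 14, KO day 2, WT day 14 and WT day 7, and only the last step, between WT day 14 and WT day 7, was without overlap.

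The KO effect on Tap1 at day 7 was larger than that at day 2. The difference of the log2 fold changes was 1.71 (SE 0.38, 95% interval 0.92 to 2.51, adjusted p = 0.0152), the only member called in this test, in which 4.37% of tested genes were called. The effect at day 14 exceeded that at day 2 by 0.99 (SE 0.37, adjusted p = 0.271), where 1.04% of tested genes and no member were called. Between days 14 and 7 no gene at all was called (0%), and the Tap1 value was -0.73 (SE 0.37, unadjusted p = 0.0690 from edgeR, adjusted p = 0.999). The Wald test of DESeq2 also called 0 genes here. By edgeR, 4.46% of tested genes and 0 members reached an unadjusted p under 0.05. The group means differed between days 2 and 7 in both genotypes. Tap1 had a mean of 71.4 ± 6.58 CPM in KO day 2 and 105 ± 33.0 CPM in KO day 7 crypts (SD, n = 3 each), while WT crypts had 94.2 ± 40.6 CPM at day 2 and 42.3 ± 10.5 CPM at day 7.

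Nlrc5, which directs class I genes including Tap1 and B2m, had a fold change at day 7 of the same size with a wider spread. It was at 36.0, 15.2 and 30.0 CPM in KO day 7 and at 15.5, 5.81 and 10.6 CPM in WT day 7 crypts. The KO library of replicate 2 fell just below the highest WT library, so the groups overlapped. The log2 fold change was 1.33 (SE 0.47, 95% interval 0.31 to 2.34, adjusted p = 0.0696). Nlrc5 passed the threshold in a model of the day 7 libraries alone (adjusted p = 0.0491), by DESeq2 (0.0436) and without KO day 7 replicate 2 (0.0414). It was -0.35 at day 2 (SE 0.47, adjusted p = 0.999), although the KO libraries (13.2 to 18.7 CPM) all lay below the WT libraries (19.6 to 19.9 CPM). Nlrc5 was the 1 member of 10 without overlap at day 2, where 8.16% of tested genes had none. At day 14 it was 0.06 (SE 0.48, adjusted p = 0.964).

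B2m, the class I light chain, was at 367, 261 and 244 CPM in KO day 7 and at 228, 237 and 195 CPM in WT day 7 crypts. The groups did not overlap, but the log2 fold change of 0.40 did not pass the test (SE 0.24, 95% interval -0.09 to 0.90, adjusted p = 0.276), and it was 0.22 without the KO library of replicate 1. At day 2 B2m had 381, 472 and 529 CPM in KO and 550, 377 and 784 CPM in WT crypts, and at day 14 239, 356 and 250 CPM in KO and 224, 298 and 306 CPM in WT crypts. On both days the groups overlapped, and the log2 fold changes were -0.31 (SE 0.24, adjusted p = 0.999) and 0.03 (SE 0.24, adjusted p = 0.964). The mean of B2m was 570 ± 204 and 461 ± 74.5 CPM in WT and KO day 2 crypts and between 220 and 291 CPM in the other 4 groups (n = 3 each), with no overlap between KO day 2 and the next group in the order, KO day 7.

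In the model over all 18 libraries, none of the 7 class II members was called between KO and WT crypts on any day. By edgeR 0 of 7 had an unadjusted p under 0.05 on any of the days, and by DESeq2 0 of 7 were called. Genes called in either direction were 0.0328% of all tested at day 2 and 7.92% at day 14, beside the 17.3% at day 7. H2-Ab1, the beta chain of the I-A molecule, was at 139, 212 and 190 CPM in KO and 140, 122 and 481 CPM in WT at day 2. It was at 181, 57.9 and 76.7 CPM in KO and 75.9, 28.3 and 59.8 CPM in WT at day 7, and at 88.7, 21.4 and 75.6 CPM in KO and 148, 32.1 and 149 CPM in WT at day 14. The groups overlapped on each day, and within a group single mice differed by up to several fold. The log2 fold changes of H2-Ab1 were -0.46 (SE 0.71), 0.94 (SE 0.72) and -0.82 (SE 0.72) at days 2, 7 and 14, with adjusted p of 0.999, 0.428 and 0.578.

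Cd74, the invariant chain that escorts class II molecules, showed the widest range. At day 7 it was at 495, 110 and 164 CPM in KO and at 184, 58.8 and 152 CPM in WT crypts, and at day 14 at 189, 19.5 and 137 CPM in KO and 408, 77.8 and 334 CPM in WT crypts. The replicate 2 libraries of both genotypes were the lowest of their groups on both days. For Cd74 the KO minus WT log2 values at days 7 and 14 were 0.96 and -1.24 (SE 0.84 on both days), with adjusted p of 0.495 and 0.444. Ciita, which drives the other class II genes, was at 28.6, 7.83 and 20.7 CPM in KO day 7, 18.6, 7.54 and 13.5 CPM in WT day 7, 22.5, 4.61 and 17.5 CPM in KO day 14 and 36.0, 6.63 and 27.7 CPM in WT day 14 crypts. The same replicate 2 libraries were again the lowest. Its log2 fold changes were -0.32, 0.51 and -0.63 at days 2, 7 and 14 (SE 0.64, 0.65 and 0.66, adjusted p = 0.999, 0.663 and 0.652).

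The other class II members, H2-Aa and H2-Eb1 (the alpha chain of I-A and the beta chain of I-E) and both H2-DM genes, had log2 fold changes between -0.68 and -0.23 at day 2, between 0.75 and 1.26 at day 7 and between -1.001 and 0.05 at day 14. H2-DMa was the 1 class II member without overlap at day 7 (28.4 to 49.7 CPM in KO and 16.2 to 26.2 CPM in WT). Its log2 value was 0.75 (SE 0.37, adjusted p = 0.196). In all, 3 of 10 members did not overlap at day 7 and 1 of 10 at day 14, against 33.6% and 26.5% of tested genes. The median over the 7 class II members was -0.47 at day 2, 0.95 at day 7 and -0.82 at day 14, beside 0.00, 0.02 and 0.00 over all tested genes. The sizes at days 7 and 14 rest in part on single mice. Without the KO day 7 library of replicate 1 the day 7 values of the 7 class II members lay between 0.07 (Cd74) and 0.49 (H2-DMa). At day 14 Cd74 ranged from -1.79 without KO day 14 replicate 1 to -0.72 without KO day 14 replicate 2, and Ciita reached -0.18 without WT day 14 replicate 1. None of the 7 was called at day 7 or 14 with any 1 of that day's libraries left out. With standard errors between 0.37 and 0.88 for single class II genes, the 95% intervals reached from -0.95 to 3.04 at day 7 and from -3.07 to 1.10 at day 14. The calls at days 7 and 14 depend on the model. In a model of the day 7 libraries with the replicate number as a block, added after seeing the data, 6 class II members were called higher. They ran from 0.73 for H2-DMa (adjusted p = 0.00885) to 1.12 for H2-DMb1 (adjusted p = 0.0146), and 6.58% of tested genes were called higher. Same-number pairs of KO and WT libraries at day 7 had correlations of -0.16 to 0.21, so the numbers were not taken to pair those libraries. All 3 same-number pairs of KO and WT libraries at day 14 deviated together over all tested genes (correlations 0.16 to 0.23), and in 3 of 3 pairs the KO library was the lower for 6 of the 7 class II members, H2-DMa being the exception. In a model of the day 14 libraries with the replicate number as a block, chosen after these values were seen, 7 of 10 members were called, where 11.4% of 19193 tested genes were (5.27% higher and 6.15% lower). As the class II members varied together within groups (r of 0.83 to 0.99), their calls are not separate results. The class II members called lower were Cd74 (-1.45, SE 0.17, adjusted p = 0.00118), H2-Eb1 (95% interval -1.25 to -0.75, adjusted p = 0.000922), H2-Aa (-0.96, SE 0.11, adjusted p = 0.00101), H2-Ab1 (-0.77, SE 0.11, adjusted p = 0.00321), H2-DMb1 (-0.79, SE 0.17, adjusted p = 0.0156) and Ciita (-0.63, SE 0.12, adjusted p = 0.0113), and Tap1 was called higher. With the block over the libraries of all days, no member was called at day 14 (Cd74 at -1.33, adjusted p = 0.239) and no class II member at day 7. Without the WT day 2 library of replicate 3, the day 2 log2 fold changes of 6 class II members were above 0, between 0.18 and 0.45.

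**Figure D2:**
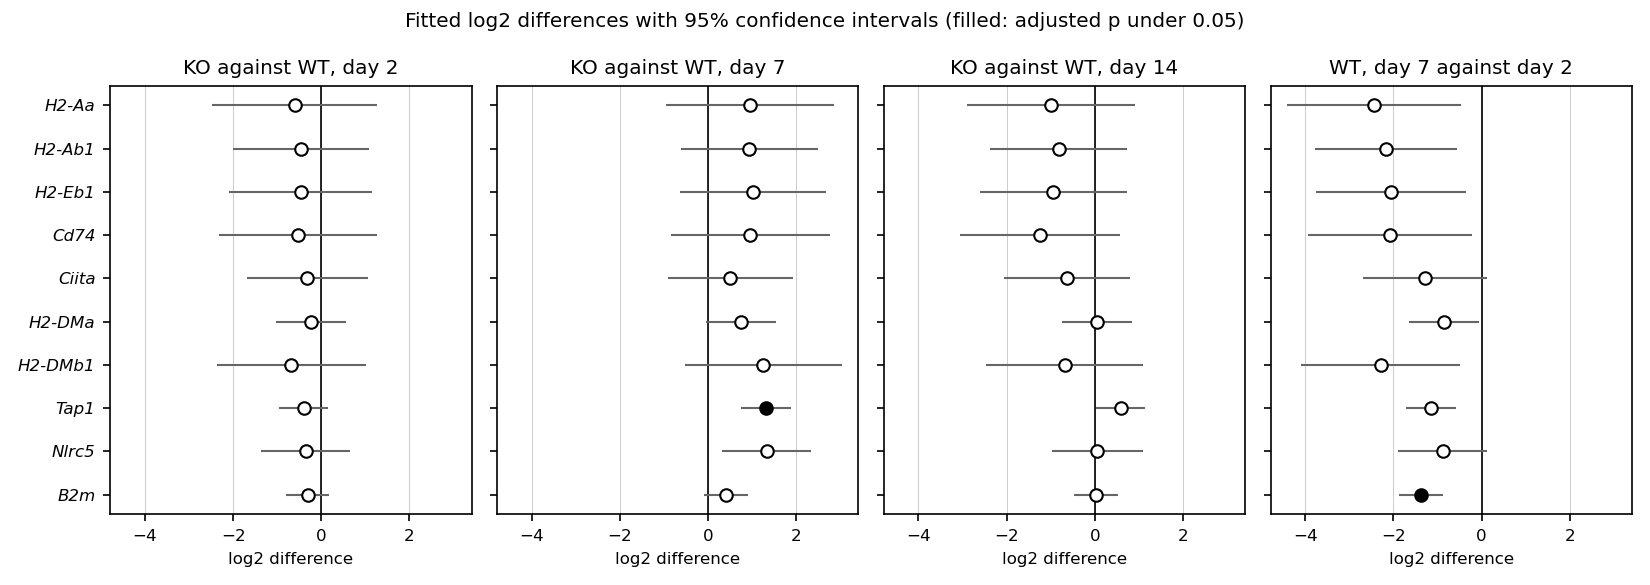
Fitted log2 differences of the 10 members with 95% confidence intervals, for KO against WT on each day and for WT day 7 against WT day 2. Filled points passed the test at an adjusted p under 0.05, which were Tap1 at day 7 (1.31) and B2m between the WT days (-1.37).

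The class II members varied together from mouse to mouse. The SD of log2 CPM within groups was 1.20 for H2-Aa, 1.15 for Cd74, 1.11 for H2-DMb1, 1.03 for H2-Eb1, 0.95 for H2-Ab1, 0.91 for Ciita and 0.50 for H2-DMa, against a median of 0.28 over all tested genes. The first 6 of these were above 98.5% or more of tested genes, and H2-DMa was above 83.7%. Among the class I members it was 0.66 for Nlrc5, 0.36 for Tap1 and 0.32 for B2m. Beside the genes nearest in mean level, H2-DMa was above 98.3%, Nlrc5 above 99.1%, Tap1 above 95.4% and B2m above 82.9%. Over the 21 pairs of class II members, Pearson's r of log2 CPM across the 18 libraries was 0.79 to 0.99, and 0.83 to 0.99 for deviations from the group means. These points share library and depth, and the r values are a description. With the class II members, Nlrc5 had a median within-group r of 0.86, Tap1 of 0.77 and B2m of 0.03.

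The libraries that stood out can be named. The WT day 2 library of replicate 3 had a summed class II level of 2247 CPM, against 706 and 712 CPM in the other WT day 2 mice, and was the highest of its group for 7 of 7 class II genes. At days 7 and 14 the replicate 2 libraries had the lowest sums, 275 CPM in KO day 7, 144 CPM in WT day 7, 81.4 CPM in KO day 14 and 170 CPM in WT day 14. They were the lowest of their group for 6 of 7 class II genes in KO day 7 and for 7 of 7 in the other 3 groups. The replicate 1 libraries were the highest for 7 of 7 genes in 3 of these groups and for 6 of 7 in WT day 14. The labels do not say what a replicate number shares, such as a litter or a day.

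**Figure D3:**
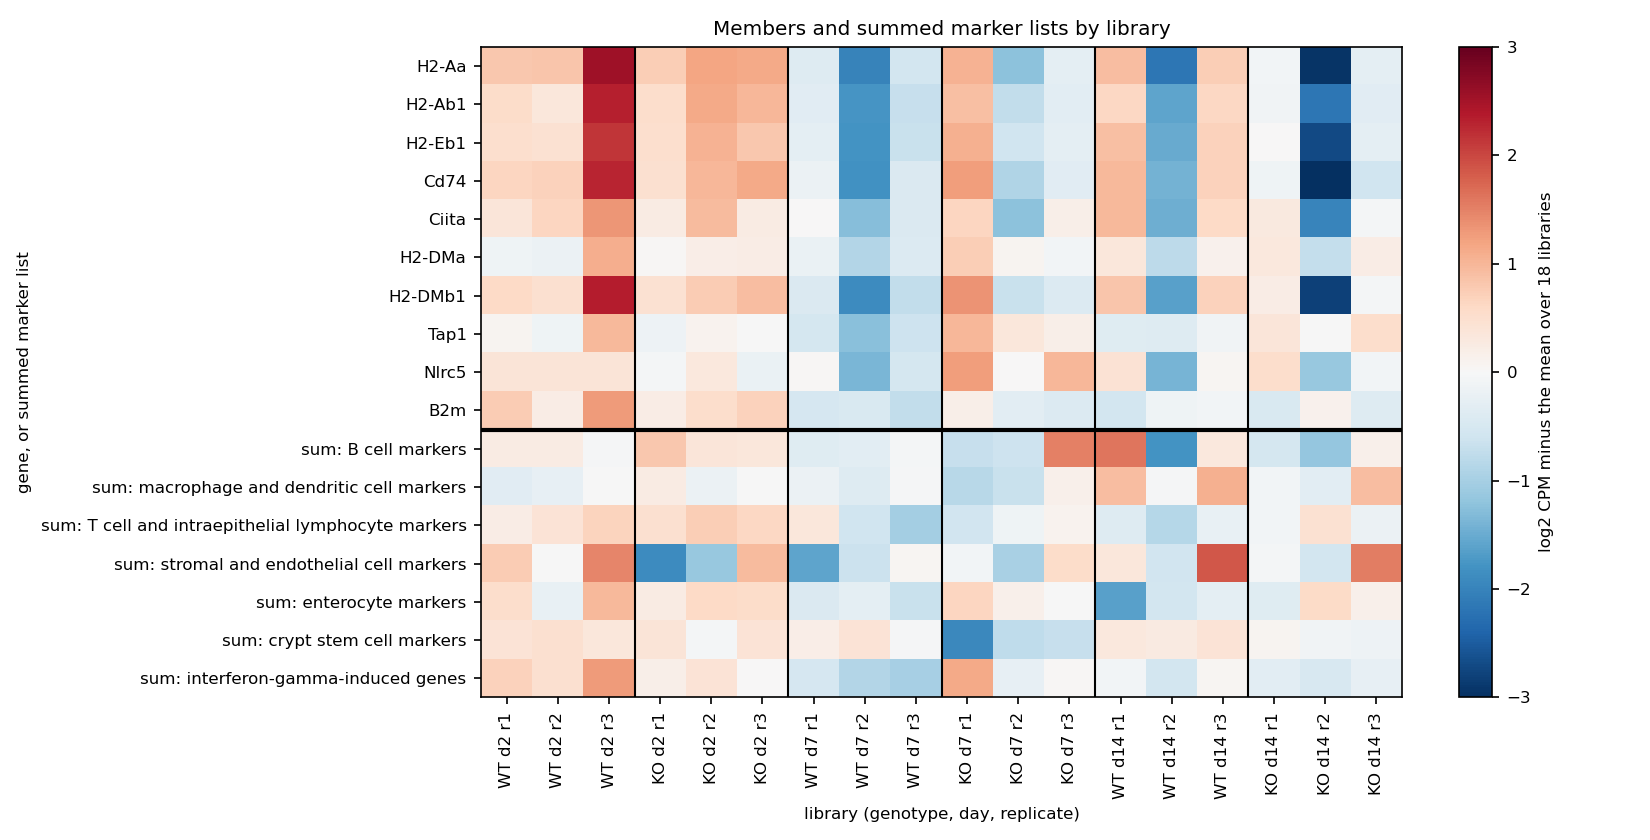
Members (above the line) and summed marker lists (below the line) in each library, as log2 CPM minus the mean over the 18 libraries, with the colours ending at -3 and 3. The class II rows change as a block, highest in WT day 2 replicate 3 for all 7 genes and lowest in KO day 14 replicate 2 for 6 of them.

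Levels of immune cell markers were set beside the class II levels, since B cells, dendritic cells and macrophages also make class II. Neither the 7 B cell, the 11 macrophage and dendritic cell nor the 12 lymphocyte markers tested gave a called gene on any day. At an unadjusted p under 0.05 by edgeR they gave 0, 3 and 0 genes at day 7 and 1, 1 and 2 at day 14, with list medians of 0.83, 0.57 and 0.20 at day 7 and of -1.32, -0.07 and 0.52 at day 14. No B cell marker was at 0 in any library, but all summed to 38.5 CPM or less. The summed B cell level was highest in WT day 14 replicate 1 (38.5 CPM) and KO day 7 replicate 3 (36.4 CPM), and lowest in WT day 14 replicate 2 (3.67 CPM) and KO day 14 replicate 2 (5.68 CPM), the latter pair being also low in class II. In WT day 2 replicate 3, the library with the most class II signal, it was 12.4 CPM, below the 15.1 and 15.03 CPM of the other WT day 2 libraries, and the macrophage and dendritic cell sum was 38.2 CPM against 30.3 and 32.7 CPM. The same library had the highest enterocyte sum of the 18 (26551 CPM, against 19324 and 11568 CPM in the other WT day 2 libraries), and it was the highest of its group for the lymphocyte markers (263 CPM, against 192 and 222 CPM) and the stromal and endothelial markers (135 CPM, against 83.4 and 48.4 CPM). Over the 18 libraries, Pearson's r between the summed class II level and a summed list, both on the log2 scale, was 0.51 for B cell markers (Spearman's rho 0.48, r = 0.39 without the 2 libraries farthest from the median B cell level), 0.18 for macrophage and dendritic cell markers and 0.38 for lymphocyte markers. The corresponding r for deviations from the group means was 0.41, 0.47 and 0.04. For Tap1 these within-group values were -0.11, 0.17 and 0.01. Stromal and endothelial markers had an r of 0.37 with the summed class II level (0.48 for deviations) and of 0.37 with Tap1 (0.36 for deviations). Whether these other cells account for part of the class II level was not tested. Of the B cell markers, 7 of 7 were above 0 at day 7 (0.16 to 1.22) and 0 of 7 at day 14 (-1.82 to -0.52), the signs of the class II medians on both days. At day 2 the signs were opposite, with 6 of 7 B cell markers (median 0.63) and 0 of 7 class II members (median -0.47) above 0. The KO day 7 library of replicate 1 had the highest class II sum of its group (1020 CPM). Its B cell sum (7.83 CPM) and its macrophage and dendritic cell sum (21.6 CPM) were the lowest of that group. Of the macrophage and dendritic cell list, 8 of 11 markers were above 0 at day 7, with values from -1.04 to 1.58, and 5 of 11 at day 14. Lyz2 and Itgam, named for their abundance, had day 7 log2 fold changes of -1.04 and -0.51 (adjusted p = 0.197 and 0.398), and Flt3 and Csf1r, the markers of smallest p, chosen after their values were seen, had 1.58 and 0.57 (adjusted p = 0.0731 and 0.0799). Jchain and Cd79b, of the B cell list, had 0.16 and 0.83 (adjusted p = 0.884 and 0.290), and Gzma and Ptprc, of the lymphocyte list, 0.00 and 0.31 (adjusted p = 0.999 and 0.726).

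Within WT mice, B2m was the 1 member called between days 7 and 2, and it was lower at day 7. In 10 of 10 members every WT day 7 library lay below every WT day 2 library, against 14.1% of all tested genes that were lower in this way, and 8 of 10 had an unadjusted p under 0.05 by edgeR, against 22.4%. B2m fell from 550, 377 and 784 CPM to 228, 237 and 195 CPM, a log2 difference of -1.37 (SE 0.24, adjusted p = 0.0345), in a comparison in which 0.3% of tested genes were called lower. Tap1 fell short of the threshold (-1.15, SE 0.27, adjusted p = 0.0548). The class II members had log2 differences between -2.45 for H2-Aa (34.9 ± 17.1 CPM at day 7 and 191 ± 143 CPM at day 2, SD, n = 3 each) and -0.85 for H2-DMa, with adjusted p between 0.122 and 0.259. Markers of some other cell types also had values below 0 in this comparison, with none of them called. The enterocyte markers had a median of -1.07 (0 of 8 above 0, 6 with an unadjusted p under 0.05 by edgeR), the lymphocyte markers of -0.78 (0 of 12 above 0, 5 with such a p) and the stromal and endothelial markers of -1.36 (1 of 7 above 0, 0 with such a p), while the B cell and the macrophage and dendritic cell markers had medians of 0.11 and 0.11. Their part in the lower levels of the members was not tested. These values rest in part on the high WT day 2 library of replicate 3, without which B2m had a log2 difference of -1.09 and an adjusted p of 0.113. Its adjusted p was also above 0.05 without WT day 2 replicate 1 (0.147), WT day 7 replicate 1 (0.0659) or WT day 7 replicate 3 (0.190).

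At day 14 the WT levels were between those of days 2 and 7 for each of the 10 members by group mean. Against day 2, B2m was the 1 member called lower (-1.05, SE 0.24, adjusted p = 0.0371, where 0.871% of tested genes were called lower) and the 1 member without overlap (23.8% of tested genes). This call was lost without any of the 3 WT day 2 or WT day 14 libraries other than WT day 2 replicate 2 and WT day 14 replicate 2, with adjusted p from 0.0597 to 0.153. In the same comparison the enterocyte markers had a median of -1.20 (0 of 8 above 0, 8 with an unadjusted p under 0.05 by edgeR), and Fabp2, a fatty acid binding protein of enterocytes, was called lower (-1.69, adjusted p = 0.0428). The lymphocyte markers had a median of -0.85 (0 of 12 above 0, 8 with such a p, none called), the macrophage and dendritic cell markers of 0.86 (9 of 11 above 0, 7 with such a p) and the B cell markers of 0.80 (6 of 7 above 0, 0 with such a p). Their part in the lower level of B2m was not tested. Against day 7, all 10 members had values above 0, between 0.33 for B2m and 1.16 for H2-DMb1, but none was called, where 0.0796% of tested genes were, and none had an unadjusted p under 0.05. The Wald test of DESeq2 called 0 members there as well. Tap1 was the 1 member without overlap (10% of tested genes). Between day 2 and the later days the number of tamoxifen injections changed with the day, between days 7 and 14 only the time since the last injection did, and neither can be told apart from the day.

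Of 12 tested genes of the immunoproteasome and peptide loading, which act with Tap1 in the class I route, 6 were called higher in KO than in WT crypts at day 7 and none lower, where 7.11% of all tested genes were called higher. Psmb8, a catalytic subunit of the immunoproteasome whose gene lies near Tap1, had the largest change, from 32.3 ± 6.48 CPM in WT to 117 ± 48.8 CPM in KO crypts (log2 fold change 1.85, SE 0.30, adjusted p = 0.000539). Tap2, the other half-transporter, rose from 26.8 ± 6.28 to 71.7 ± 20.4 CPM (1.41, SE 0.34, adjusted p = 0.00957). Psmb9, the neighbour that shares exonic bases with Tap1, rose from 24.1 ± 2.59 to 52.3 ± 18.7 CPM (1.11, SE 0.24, adjusted p = 0.00362), and Psme1, an activator subunit of the proteasome, from 80.1 ± 4.94 to 124 ± 31.9 CPM (0.63, SE 0.17, adjusted p = 0.0129). The median of the list was 0.55 at day 7, -0.14 at day 2 and 0.18 at day 14, and no gene of the list was called at day 2 or 14, with 0 and 3 genes at an unadjusted p under 0.05 by edgeR.

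Of 17 tested class I heavy chain and class I-like genes, 4 were called higher at day 7, beside 7.11% of all tested genes, and none lower. The classical heavy chains H2-K1 and H2-D1 rose from 409 ± 54.4 to 739 ± 211 CPM and from 296 ± 32.2 to 489 ± 121 CPM, with log2 fold changes of 0.86 (SE 0.26, adjusted p = 0.0295) and 0.72 (SE 0.24, adjusted p = 0.0455). H2-Q4, a nonclassical heavy chain, had 0.86 (adjusted p = 0.00347) and H2-Bl 0.93 (adjusted p = 0.0160). Heavy chain genes have near-identical copies, and multi-mapping fragments were left out of the counts, so single heavy chain values are uncertain. The median of the list was 0.55 at day 7, -0.12 at day 2 and 0.24 at day 14. H2-Bl was the 1 gene of the list called at day 14 (0.95, adjusted p = 0.0264, where 3.23% of tested genes were called higher), and none was called at day 2. No class I gene was called at day 14 without any 1 of the KO libraries or without WT day 14 replicate 1, and 2 were called, with 3 immunoproteasome and loading genes, in the model of the day 14 libraries with a block for the replicate number, where 11.4% of tested genes were called. The counts called in these lists at day 7 fell with some single libraries left out. The share of all tested genes called in those fits is not given here, so these falls are not set against the background. Without the KO day 7 library of replicate 1, which had the highest level of Tap1 and of every class II member in its group, 1 class I gene and 3 immunoproteasome and loading genes were called. Without WT day 7 replicate 3 the counts were the same, and without WT day 7 replicate 2 only 1 class I gene was called.

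**Figure D4:**
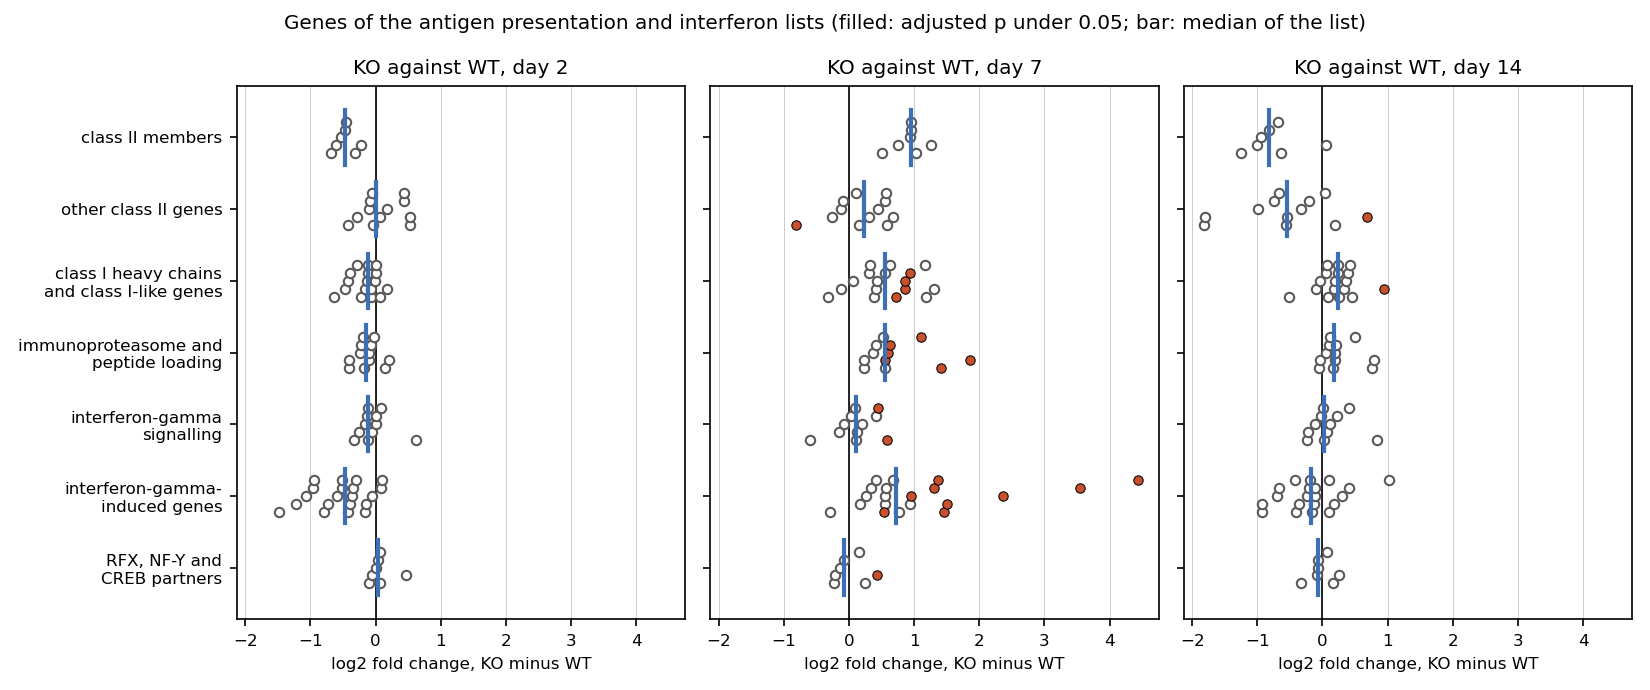
Log2 fold changes, KO minus WT, of the genes of 7 lists at days 2, 7 and 14. Each point is a gene, filled where the adjusted p was under 0.05, and each bar is the median of the list. At day 7 the filled points of the class I, immunoproteasome and interferon-gamma-induced lists lie to the right of 0, with Ubd at 4.44 as the farthest, and at day 2 no point is filled.

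Interferon-gamma is the cytokine that raises both MHC pathways. Of 20 tested genes known to be induced by it, 9 were called higher in KO crypts at day 7, where 7.11% of all tested genes were, and none lower, with a list median of 0.72. Zbp1, a sensor of nucleic acids, rose from 6.01 ± 0.848 to 14.9 ± 3.58 CPM (log2 fold change 1.31, SE 0.27, adjusted p = 0.00284). Igtp, an immunity-related GTPase, rose from 6.81 ± 2.77 to 35.6 ± 35.1 CPM (2.36, SE 0.60, adjusted p = 0.0152), Ubd, a ubiquitin-like modifier, from 0.445 ± 0.231 to 9.74 ± 9.12 CPM (4.44, SE 0.95, adjusted p = 0.00539), and Cd274, the ligand PD-L1, from 0.972 ± 0.465 to 2.81 ± 1.03 CPM (1.46, SE 0.40, adjusted p = 0.0158). The large SD of Igtp and Ubd among KO mice reflects 1 high library each (76.0 and 20.1 CPM). No gene of the list was called at day 2 or 14, with medians of -0.46 and -0.17 and with 5 and 1 genes at an unadjusted p under 0.05 by edgeR. The count of 9 fell to 3 without KO day 7 replicate 1 or WT day 7 replicate 3, to 2 without WT day 7 replicate 2, and to 4 in a model of the day 7 libraries alone. For these fits too, the share of all tested genes called is not given here. Of the 11 tested genes of interferon-gamma signalling, 2 were called higher at day 7, among them Irf9, a transcription factor of interferon responses (0.45, adjusted p = 0.0486), and none at day 2 or 14, with 1 and 2 genes at an unadjusted p under 0.05 by edgeR. Ifng itself did not pass the filter on low counts.

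Genes of the interferon and immunoproteasome lists were also called between days 2 and 7 of WT crypts. Of the interferon-gamma-induced genes, 17 of 20 were without overlap between these groups (28.4% of tested genes were so in either direction), the median was -1.58, and 5 of 20 were called lower (0.3% of tested genes). These 5, named after their values were seen, were Zbp1 (-1.55, adjusted p = 0.0345), Irgm1 (-0.94, adjusted p = 0.0361), Irgm2 (-2.09, adjusted p = 0.0402), Ido1 (-2.29, adjusted p = 0.0469) and Tgtp2 (-1.88, adjusted p = 0.0488). Psmb8 (-1.57, adjusted p = 0.0396) and Psme2 (-0.86, adjusted p = 0.0402) of the immunoproteasome list were called lower too. These WT day 7 libraries are also the reference of the KO comparison at day 7, so the comparisons share samples and are given side by side only. The summed interferon-gamma-induced level was 168 to 289 CPM in WT day 2, 120 to 160 CPM in KO day 2, 60.3 to 83.8 CPM in WT day 7, 101 to 262 CPM in KO day 7, 81.1 to 125 CPM in WT day 14 and 85.2 to 101 CPM in KO day 14 crypts. Over the 18 libraries, Pearson's r between this sum and the summed class II level, both as log2, was 0.79 (rho 0.81, 0.73 for deviations from group means), and with Tap1 it was 0.74 (rho 0.59, 0.76 for deviations). These are descriptions over libraries that share depth and groups.

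Calls among the other class II genes and the partners of Ciita and Nlrc5 were close to the background at day 7, when 10.2% of all tested genes were called lower and 7.11% higher. Of 12 other tested class II genes, such as proteases and H2-DO chains, Lgmn was called lower at day 7 (27.6 ± 8.49 CPM in WT and 15.7 ± 1.33 CPM in KO, log2 fold change -0.81, SE 0.24, adjusted p = 0.0273). Lgmn encodes legumain, a lysosomal protease. Ctsl, another lysosomal protease, was called higher at day 14 (0.68, adjusted p = 0.0455, 1 of 12, where 3.23% of tested genes were called higher), a gene named after its value was seen. Of 7 tested RFX, NF-Y and CREB partners, Rfxank, a subunit of the RFX complex, was called higher at day 7 (23.9 ± 2.35 CPM in WT and 32.3 ± 2.01 CPM in KO, 0.43, SE 0.12, adjusted p = 0.0152), and the median of the list was -0.07.

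Markers of crypt stem cells and enterocytes also differed at day 7. The stem cell markers Smoc2 (-1.34), Slc12a2 (-1.23), Lgr5 (-1.59) and Olfm4 (-1.30) were called lower in KO crypts (adjusted p from 3.62e-05 to 0.00365), 4 of 6 tested, where 10.2% of all tested genes were called lower. The enterocyte markers Fabp1 (1.55) and Fabp2 (1.22) were called higher (adjusted p = 0.0129 and 0.0387), 2 of 8 tested, where 7.11% of all tested genes were called higher. The enterocyte markers were above 0 in 8 of 8 cases at day 7 (median 0.87, 6 with an unadjusted p under 0.05 by edgeR) and in 7 of 8 at day 14 (median 1.03, 6 with such a p). At day 14 Smoc2 was lower (-0.70, adjusted p = 0.0158, where 4.69% of tested genes were called lower) and the enterocyte enzyme Sis, named after its value was seen, higher (1.15, adjusted p = 0.0229, 1 of 8, where 3.23% of tested genes were called higher). At day 7 Cdx1, of the 8 epithelial markers, was called lower (-0.43, adjusted p = 0.0483), and Pecam1, of 7 tested stromal and endothelial markers, higher (1.29, adjusted p = 0.0188). The KO day 7 library with the most Tap1, replicate 1, had the lowest summed stem cell marker level of all libraries (460 CPM, against 1039 to 1086 CPM in the other KO day 7 mice) and the highest enterocyte sum of its group (20988 CPM). Over the 18 libraries, Pearson's r of log2 Tap1 was 0.61 with the summed enterocyte markers and -0.53 with the summed stem cell markers, and 0.41 and -0.59 for deviations from group means. The part of these shifts in the level of Tap1 was not tested.

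The genes most like a member were sought by Pearson's r of log2 CPM over the 18 libraries among the 21339 tested genes that are not members. Tap1 was most like Gm20496 (r = 0.97), Psmb8 (0.95) and Psmb9 (0.94). Psmb9 shares exonic bases with Tap1, whereas Gm20496 shares 259 with Psmb8 and 140 with Tap2. Among the genes most like B2m were Pls1 (0.95) and Hsd17b11 (0.95), neither of them a gene of the lists. H2-Ab1 was most like Mir5107 (0.96), which lies within Cd74 on chromosome 18 at 60812076-60812163, H2-Q7 (0.87) and Gm17334 (0.85). Ciita was most like Mir5107 (0.93), Cd4 (0.89) and 9330175E14Rik (0.87), the last overlapping Nlrc5. Cd4 (rho 0.73) and 9330175E14Rik (rho 0.83) had low means of 0.618 and 1.44 CPM. Mir5107 shares 12 exonic bases with Cd74 on the same strand, so its values can contain reads of Cd74. Without the 2 libraries farthest from the median of the member, r was 0.94 to 0.95 for the genes near Tap1, 0.90 to 0.92 for Pls1 and Hsd17b11 with B2m, 0.70 to 0.97 for those near H2-Ab1 and 0.78 to 0.89 for those near Ciita.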

How the data were processed

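The deposited table holds raw counts of fragments per gene, which the authors made from paired-end RNA-Seq reads with STAR 2.7.3 and featureCounts 1.6.4 on mm10, without strand, with multi-mapping fragments left out and with fragments over several genes counted for each. The file header names GENCODE release M23, and the methods name another release. All 18 sample columns were used, and 0 columns were left out.

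Genes were filtered by group with filterByExpr after removal of 20 sex-linked genes, as in the study, and normalised by TMM in edgeR 4.0.16 (R 4.3.3, limma 3.58.1). A model with 1 mean per group was tested with the robust quasi-likelihood F-test, and p-values were adjusted by Benjamini and Hochberg's method over 21349 genes. Genes with an adjusted p under 0.05 were called. Tests were checked on simulated data. CPM values carry TMM factors, and log2 CPM for correlations used a prior count of 2. Figures were drawn with matplotlib 3.10.9.

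The members and the 15 gene lists were chosen with earlier results of these data known, so no list count is independent evidence, and 2 list names were not matched to the table. Named are all members, up to 4 genes per list with the smallest p in the KO comparison with most calls in that list (up to 2 by mean CPM where none was called), and the 3 genes most like H2-Ab1, Ciita, Tap1 and B2m. Some items that this rule names, and 1 motif searched in the promoters, are not reported here. Promoters were taken from RefSeq (GRCm38.p6). Alternatives were DESeq2 size factors, the DESeq2 1.42.0 Wald test, other filters, the sex genes kept, a replicate block, only the groups compared, and each library left out. Deviations from the group means were correlated above 0.1 in all 3 same-number pairs of KO and WT libraries at day 14, and not on the other days, so a model of the day 14 libraries with the number as a block is given beside the main one. The labels do not say what a number shares. Leaving out the 2 libraries with the most B cell marker signal was chosen after seeing the data. Nothing in the labels says more than that each library is a separate sample of its group, and p-values measure the spread between these samples.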

Additional observations from a re-analysis of the deposited data

Results flagged for a closer look

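The KO effect on Tap1 differed between days 2 and 7 by a test of the difference itself. The log2 fold change was -0.40 at day 2 and 1.31 at day 7, and the difference was 1.71 (SE 0.38, 95% interval 0.92 to 2.51, adjusted p = 0.0152 by edgeR). At day 7 Tap1 was higher in 3 of 3 KO libraries than in every WT library. At day 2 the groups overlapped, and without the WT day 2 library of replicate 3 the day 2 value was -0.00070 and the difference 1.33 (adjusted p = 0.0226). The difference kept its call under each of the 20 alternatives run for it, with values between 1.33 and 1.92 and adjusted p between 0.000329 and 0.0454.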

How the results depend on the processing

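Tap1 at day 7 kept its call under each of the 15 alternatives run, with log2 fold changes between 1.05 and 1.49 and adjusted p between 1.85e-05 and 0.0168. The number of members called between KO and WT at day 7 was 1 in the main analysis, which called 3690 genes in all. It was 2 (Tap1 and Nlrc5) with the replicate block and in a model of only the groups compared. It was also 2 by DESeq2's test, which called 4022 genes in all there, and 1 to 2 with a library left out. Between WT days 7 and 2 it was 2 with the 20 most abundant genes left out, with no filter, or without KO day 7 replicate 3 and WT day 14 replicate 1 together, 5 by DESeq2 (which called 1544 genes in all there), and 0 to 2 with a library left out. Between WT days 14 and 2 it was 0 in a model of only the groups compared or without those 2 libraries together, and 0 to 1 with a library left out. The shares of all tested genes called in these alternative fits are not given here, so these counts are not set against the background.

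Signs turned for values that had not been called. With a library left out, the day 2 log2 fold changes ranged from -0.89 to 0.20 for H2-Aa, -0.78 to 0.45 for H2-Ab1, -0.75 to 0.31 for H2-Eb1, -0.80 to 0.22 for Cd74, -0.45 to 0.30 for H2-DMa and -0.99 to 0.18 for H2-DMb1, and those above 0 were without WT day 2 replicate 3. At day 14 the ranges were -0.22 to 0.33 for H2-DMa, -0.37 to 0.44 for Nlrc5 and -0.16 to 0.14 for B2m, and B2m was -0.094 without KO day 7 replicate 3 and WT day 14 replicate 1 together. The cause of these changes was not tested.

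With the replicate number as a block, 2 members were called at day 7 (Nlrc5 at 1.35, adjusted p = 0.0156), and 0 members between WT days 7 and 2 or 14 and 2 (B2m, adjusted p = 0.0509 and 0.0572). The share of all tested genes called in that fit is not given here. With the block in a model of only the groups compared, added after seeing the data, 0 members were called at day 2, 7 at day 14 and 8 at day 7 (all but Ciita and B2m, with 6 class II members between 0.73 for H2-DMa and 1.12 for H2-DMb1), where 15.7% of genes tested at day 7 were called. The shares of tested genes called were 0.0204% at day 2 and 11.4% at day 14. Class II members varied together, so their calls are not separate results. The correlation of deviations was above 0.1 in 3 of 3 same-number pairs at day 14, in 2 of 3 at day 2 and in 1 of 3 at day 7 (-0.16 to 0.21), so that the numbers were taken to pair the libraries at day 14 and not at day 7. At day 7 all 10 members were higher in the KO library in 3 of 3 same-number pairs. Each KO library correlated best with its own number in 3 of 3 cases at day 14, 2 of 3 at day 2 and 1 of 3 at day 7. With 3 mice a group, the spread between mice, more than counting depth, limits what can be detected for class II genes.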
